A study of Mus musculus with 24 samples.

Results

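The Notch pathway genes described here are 10 genes chosen by symbol: the 4 receptors Notch1, Notch2, Notch3 and Notch4, the 4 ligands Jag1, Jag2, Dll1 and Dll4, and the 2 target genes Hes1 and Hey1. All 10 were found among the 25239 genes of the expression table. Of the 10, 8 reached the filter for testing (a level of at least 1 TPM, a transcript's share of a library after correction for length, in at least 3 libraries), and Notch4 and Dll4 did not. RNA was sequenced from 6 mouse small cell lung cancer (SCLC) lines, each in 4 conditions, which gave 24 libraries in 8 groups of 3. Lines 4711-1, 4711-18 and 4716-11 were labelled Type D and are called Type D lines 1, 2 and 3, and lines 4711-11, 4716-10 and 4716-14 were labelled Type V and are called Type V lines 1, 2 and 3. In the study, Type D lines lost viability once p53 was restored and Type V lines stayed viable. Every line was grown from a lung tumour of a mouse with Rb1 flox/flox, Rbl2 flox/flox, Trp53 XTR/XTR and Rosa26 FlpO-ER alleles. Adenoviral Cre driven by the CMV promoter, which is not limited to 1 cell type, had deleted Rb1 and Rbl2 and trapped Trp53 in those tumours, so all groups, Control included, lack Rb1 and Rbl2. Control cells received vehicle, and Restored cells received 4-hydroxytamoxifen, which activates the FlpO-ER recombinase and removes the trap from Trp53. Both were also grown with cyclosporin A (CsA), an inhibitor of cyclophilins, as Control + CsA and Restored + CsA. All libraries were taken at 72 h. The labels do not say whether lines that share their first number came from the same animal.

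Notch signalling passes between touching cells. A Jagged or Delta ligand on one cell binds a Notch receptor on its neighbour, proteases of the ADAM family and then gamma-secretase cut the receptor, and the freed intracellular part joins RBPJ and MAML in the nucleus and turns on genes such as Hes1, Hey1 and Nrarp. Receptor and ligand in the same cell can also bind each other without signalling. In SCLC, active Notch is known to oppose the neuroendocrine state.

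The receptor gene with the widest range of group means was Notch3, and its promoter is shown because its transcript moved with both the type of line and p53 restoration. Notch3 (ENSMUSG00000038146) lies on the minus strand of chromosome 17, at 32120820 to 32166852 in the GENCODE annotation of GRCm38. The 250 bases before its RefSeq start (GRCm38.p6, chr17:32166891-32167140, minus strand, written 5′ to 3′ in the direction of the gene) contain 68.8% G or C and read as follows, with no letters in capitals since neither motif searched was found.
Notch3: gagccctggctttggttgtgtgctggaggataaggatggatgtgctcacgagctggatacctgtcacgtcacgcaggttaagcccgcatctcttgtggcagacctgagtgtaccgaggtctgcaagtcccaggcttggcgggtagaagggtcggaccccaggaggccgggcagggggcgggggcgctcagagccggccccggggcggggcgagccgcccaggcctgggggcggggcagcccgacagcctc
The motifs searched on both strands were the p53 half-site and the RBPJ core TGGGAA. Of the 10 genes, 8 were in the RefSeq promoter table, with 9 windows, and Hes1 and Hey1 were not. None of the 9 windows held either motif, while 7.13% of all 32851 windows of that length held a p53 half-site and 21.6% held TGGGAA. Of the 9 windows, 8 overlapped GENCODE exons, of the gene itself or of another gene, all but that of Notch3. The absence of a match says only that these letters are not in these windows. Of the other members, Notch1, Jag1 and Dll4 lie on chromosome 2, Notch2 and Hey1 on chromosome 3, Jag2 on chromosome 12, Hes1 on chromosome 16, and Notch4 and Dll1 on chromosome 17.

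In Trp53 itself, the restored gene, levels were 10.5 to 15.3 TPM in the 12 unrestored libraries and 181.5 to 252.7 TPM in the 12 restored ones, without overlap. Neuroendocrine markers, which define SCLC, were largely low: 6 of 10 reached 1 TPM in any library. The summed neuroendocrine list was 6.45 to 28.8 TPM in Type D and 40.2 to 89.2 TPM in Type V. No endothelial marker of 6 reached 1 TPM in any library. Of 5 immune markers, only Cd68 did. It rose with restoration in both types, and the immune sum was 5.82 to 11.8 TPM in unrestored and 16.9 to 55.4 TPM in restored libraries, while Ptprc, which marks leukocytes in general, stayed at or below 0.154 TPM. Libraries of the same line deviated together from their group means, so the rise and fall within a line is given beside each group comparison, and a fit with the line as a block is given where it changes a call. A call needs an adjusted p under 0.05 and a difference of at least 1 on the log2(TPM + 1) scale, a scale that understates the change of genes near 0.

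Notch3, a receptor best known from smooth muscle and pericytes, was nearly silent in unrestored Type D cells, was present in unrestored Type V cells, and rose in both when p53 was restored. In Type D lines 1, 2 and 3, the Notch3 level in Control was 0.0544, 0.0477 and 0.178 TPM, and in Restored it was 3.31, 9.49 and 18.7 TPM. In Type V lines 1, 2 and 3, the level was 1.49, 10.8 and 25.3 TPM in Control and 75.7, 76.6 and 167.4 TPM in Restored. The Control and Restored libraries did not overlap in either type, and every Type V library lay above every Type D library of the same treatment. The CsA-treated groups had the same pattern. Notch3 was 0.0, 0.0356 and 0.113 TPM in Type D Control + CsA against 1.86, 8.64 and 11.1 TPM in Type D Restored + CsA. It was 1.49, 13.0 and 14.2 TPM in Type V Control + CsA against 60.5, 61.3 and 158.5 TPM in Type V Restored + CsA. From highest to lowest mean, the 8 groups were Type V Restored, Type V Restored + CsA, Type V Control, Type D Restored, Type V Control + CsA, Type D Restored + CsA, Type D Control and Type D Control + CsA. Neighbours in that order overlapped in range at all steps but those from Type V Restored + CsA to Type V Control and from Type D Restored + CsA to Type D Control. The level in restored Type D lines lay within the range of unrestored Type V lines.

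Tested with limma across 14104 genes, Notch3 was lower in Type D than in Type V by a log2 difference of -3.07 ± 0.796 (SE; adjusted p = 0.0144) in Control, -2.95 (adjusted p = 0.0169) in Control + CsA, -3.38 (adjusted p = 0.0077) in Restored and -3.61 (adjusted p = 0.0053) in Restored + CsA. The 4 comparisons rest on the same 6 lines and are not independent of each other. Of the 8 members tested, 2 were called in each of them, Notch3 lower and Jag1 higher in Type D, beside 8.83% of all tested genes called in Control, 9.88% in Control + CsA, 9.44% in Restored and 7.82% in Restored + CsA. With so few members, that count is not a result about the list. The Control call on Notch3 was lost without Type D line 2 (adjusted p = 0.0603), Type D line 3 (0.055) or Type V line 3 (0.0906), and the Restored and Restored + CsA calls were lost without Type D line 1 (0.0696 and 0.0581). In Control + CsA the call was lost without any of the 3 Type D lines (0.0527, 0.0645 and 0.0654) or Type V line 2 (0.074) or 3 (0.0617). Fitted on the compared groups alone, the adjusted p was 0.0979 in Control and 0.0735 in Control + CsA. Fibroblast markers moved with the types beside Notch3: 5 of the 6 listed genes reached 1 TPM in some library, and their sum was 0.304 to 1.93 TPM in Type D and 75.3 to 562.8 TPM in Type V. Within Type V that sum went the other way from Notch3 on restoration, from 192.1 to 494.0 TPM in Control to 88.7 to 193.4 TPM in Restored. In bulk RNA, fewer cells of one kind and less RNA per cell cannot be told apart, and the part of these markers, and of the neuroendocrine sums above, in the result was not tested.

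**Figure D1:**
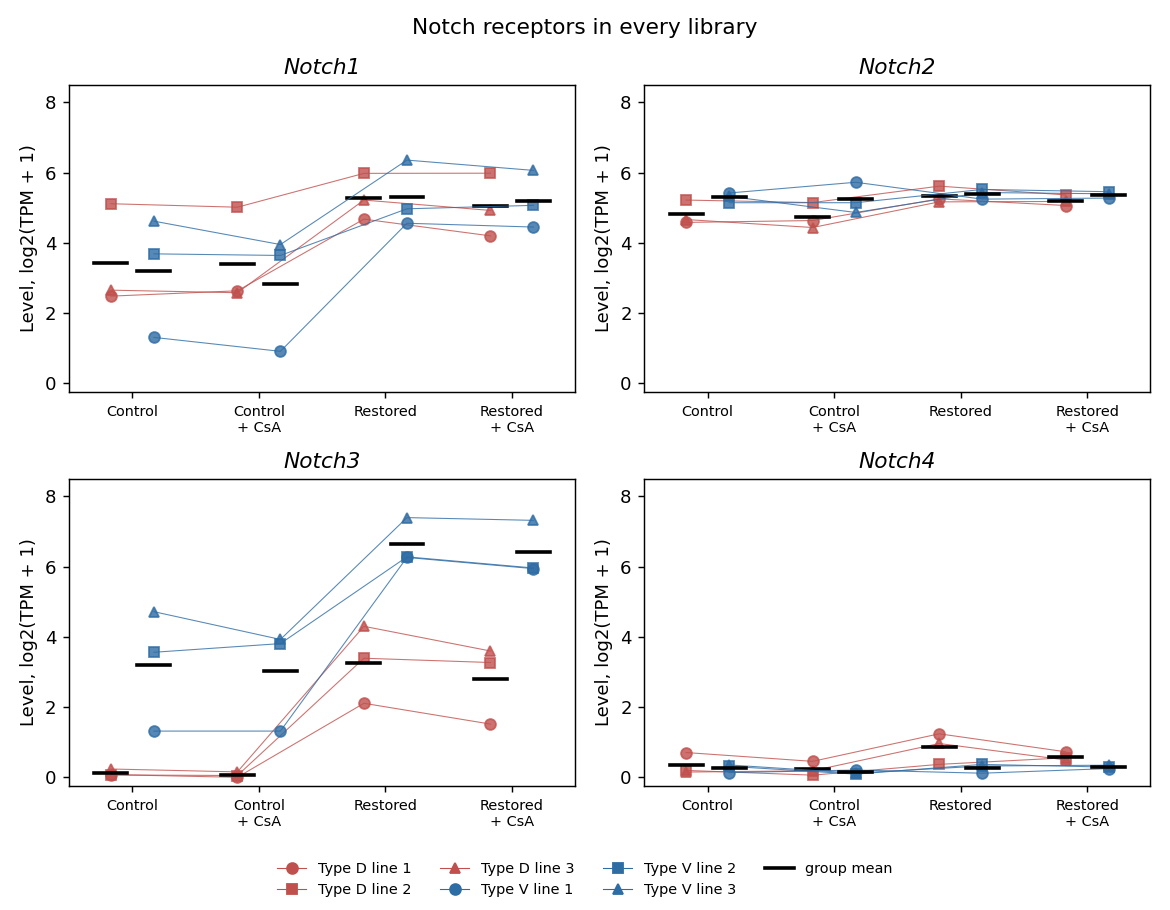
Level of each Notch receptor as log2(TPM + 1) (vertical axis) in all 24 libraries, by treatment (horizontal axis), with Type D in red and Type V in blue. Each symbol is 1 line, thin lines join the libraries of the same line, and black bars are group means of 3 lines. Notch3 sat near 0 in unrestored Type D lines and above every Type D library of the same treatment in Type V, while Notch2 stayed between 20.7 and 52.0 TPM throughout.

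p53 restoration raised Notch3 by a log2 difference of 3.14 (SE 0.796, adjusted p = 0.0122) in Type D and 3.45 (adjusted p = 0.00786) in Type V. In the mean of both types it rose by 3.29 ± 0.563 (SE; adjusted p = 0.00026), in 6 of 6 lines. Under CsA the step was 2.73 (adjusted p = 0.0371) in Type D and 3.39 (adjusted p = 0.0102) in Type V. Within lines, the step without CsA was 2.03, 3.32 and 4.07 in Type D lines 1, 2 and 3 and 4.95, 2.72 and 2.68 in Type V lines 1, 2 and 3. Within Type V, line 1 started lowest and had the largest step. For the Type D lines, which started near 0 TPM, this scale understates the step, so steps are not ranked across the types. The step did not differ detectably between the types, with a difference of -0.31 ± 1.13 (SE; adjusted p = 1), which leaves room for differences of either sign. With a pseudocount of 0.1 in place of 1, the difference was 1.82 ± 1.35 (SE) and not a call. Its sign thus depended on the pseudocount, with Notch3 near 0 in unrestored Type D lines. The Type D call without CsA was lost without Type D line 2 (adjusted p = 0.137) or line 3 (0.159), and the Type D call under CsA was lost without Type D line 1 (0.0633), line 2 (0.294), line 3 (0.311) or Type V line 2 (0.0536), and with no filter on low values (0.0578). The Type V calls were lost when the compared groups were fitted alone, at adjusted p = 0.139 without CsA and 0.127 under CsA.

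Notch1, a broadly expressed receptor, also stood higher in every line after restoration, and its level did not separate the types. In Type D lines 1, 2 and 3 it was 4.6, 33.7 and 5.3 TPM in Control and 24.6, 62.2 and 36.3 TPM in Restored. In Type V lines 1, 2 and 3 it was 1.48, 11.9 and 23.6 TPM in Control and 22.6, 30.4 and 81.1 TPM in Restored. The groups overlapped, with Type D line 2 and Type V line 3 high from the start. The ratio of Restored to Control within a line was 1.85 to 6.85 in Type D and 2.55 to 15.3 in Type V. Between the types, the Control difference of Notch1 was 0.21 ± 0.953 (SE; adjusted p = 0.919). Over both types Notch1 rose by a log2 difference of 1.98 ± 0.674 (SE; adjusted p = 0.0396), and Notch1 and Notch3 were the 2 members called of the 8 tested, beside 6.84% of all tested genes. That call was lost without Type D line 1 (adjusted p = 0.12), Type D line 3 (0.163), Type V line 1 (0.061), Type V line 2 (0.0744) or Type V line 3 (0.057), with no filter (0.0606) and on the compared groups alone (0.0538).

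Within a single type, the Notch1 difference was 1.87 (adjusted p = 0.233) in Type D and 2.09 (adjusted p = 0.199) in Type V when lines were treated as unpaired. With the cell line as a block, both passed, at adjusted p = 0.00134 in Type D and 0.000662 in Type V. This was also so under CsA, where the difference was 1.62 in Type D (adjusted p = 0.349, with the block 0.00429) and 2.36 in Type V (adjusted p = 0.159, with the block 0.000299). Without the block 1 of 8 members, Notch3, was called for restoration in Type D and in Type V, beside 6.93% and 5.29% of all tested genes. Under CsA it was again Notch3 alone, beside 5.41% in Type D and 4.61% in Type V. With the block the counts were 2 in Type D (Notch1 and Notch3) and 3 in Type V (Notch1, Notch3 and Jag2), with and without CsA. The block also raised the share called over all tested genes, to 11.2% in Type D and 8.66% in Type V, and under CsA to 9.69% in Type D and 7.97% in Type V.

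Notch2 was the steadiest receptor and was present in every library, at 20.7 to 52.0 TPM. Its mean was 27.9 ± 7.33 TPM (SD, n = 3) in Type D Control, 40.1 ± 7.02 TPM in Type D Restored, 38.5 ± 3.80 TPM in Type V Control and 41.4 ± 4.08 TPM in Type V Restored. In Type D it stood 0.39 to 0.67 higher on the log2 scale after restoration in 3 of 3 lines, a difference of 0.52 (adjusted p = 0.138), which was not a call. Notch4, a receptor mainly of endothelial cells, was 0.0434 to 1.36 TPM, reached 1 TPM in 1 library (Type D line 1, Restored) and was not tested.

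The make-up of the receptor pool is given as a description of the same values. In Type D Control, Notch3 made up 0.192%, 0.068% and 0.594% of the summed receptor TPM of lines 1, 2 and 3, and Notch2 made up 81.3%, 51.7% and 81.3%. In Type V Restored, Notch3 made up 55.9%, 50.3% and 57.5%, and Notch2 made up 27.3%, 29.6% and 14.5%. Notch3 was thus the most abundant receptor transcript, per length, in all 3 restored Type V lines and in none of the restored Type D lines, where its share was 4.98%, 7.91% and 20.6%. The summed receptor level was 42.8 ± 23.7 TPM (SD, n = 3) in Type D Control and 92.5 ± 26.9 TPM in Type D Restored. It was 63.5 ± 22.3 TPM in Type V Control and 193.0 ± 85.4 TPM in Type V Restored.

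**Figure D2:**
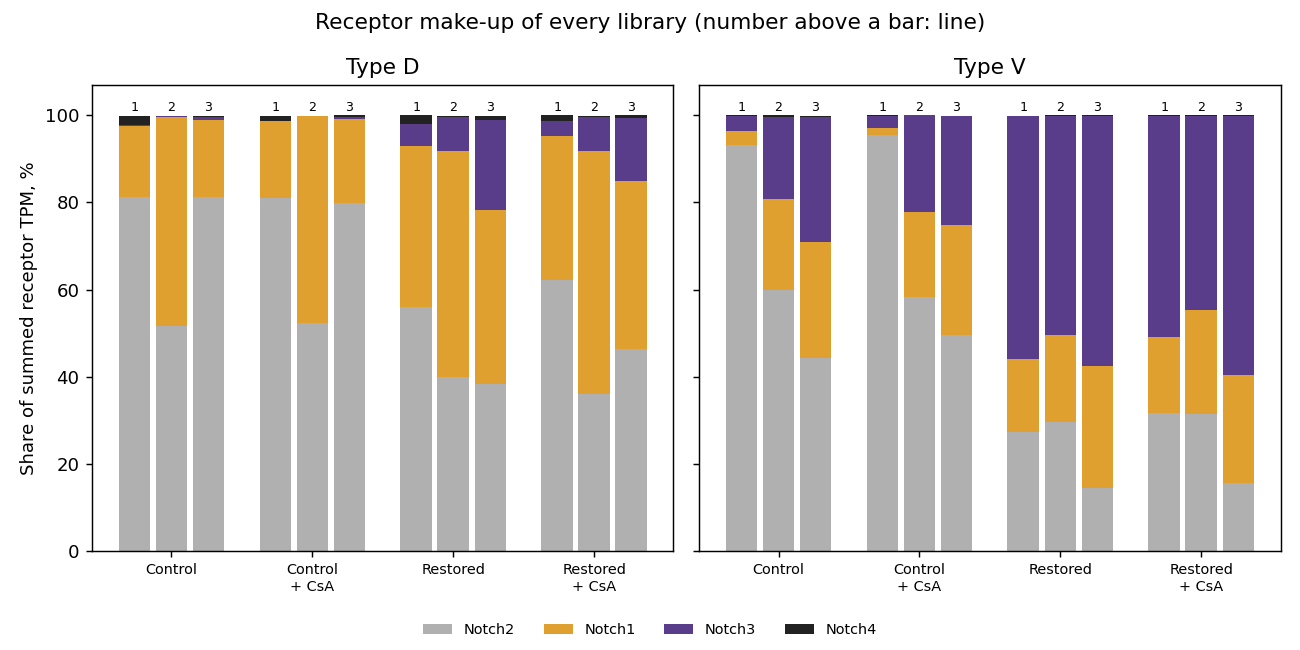
Share of the summed receptor TPM (vertical axis, percent) held by Notch1, Notch2, Notch3 and Notch4 in each library, with bars grouped by treatment and numbered by line. Notch3 held at most 0.594% in unrestored Type D libraries and 44.7% to 59.6% in restored Type V libraries, with and without CsA.

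Jag1, a Jagged-class ligand, was the other member that separated the types, in the opposite direction to Notch3. In Type D lines 1, 2 and 3, its level was 109.5, 78.1 and 108.6 TPM in Control, 86.1, 77.5 and 81.7 TPM in Control + CsA, 239.7, 98.8 and 171.4 TPM in Restored and 106.0, 82.7 and 103.5 TPM in Restored + CsA. In Type V lines 1, 2 and 3, it was 1.08, 24.5 and 10.0 TPM in Control, 1.47, 27.6 and 7.15 TPM in Control + CsA, 2.28, 21.1 and 24.8 TPM in Restored and 2.11, 23.5 and 19.9 TPM in Restored + CsA. Every Type D library lay above every Type V library, and Type V line 1 was the lowest in each treatment. In the order of the 8 group means the 4 Type D groups came first, and the only neighbours whose ranges did not overlap were Type D Control + CsA and Type V Restored.

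Jag1 was higher in Type D by a log2 difference of 3.56 ± 0.948 (SE; adjusted p = 0.017) in Control, 3.32 (adjusted p = 0.0234) in Control + CsA, 3.70 (adjusted p = 0.013) in Restored and 3.07 (adjusted p = 0.0412) in Restored + CsA. In Control, the adjusted p passed 0.05 without Type D line 1 (0.1), line 2 (0.0528) or line 3 (0.0999) or Type V line 3 (0.053), while the difference ranged only from 2.56 to 4.37 over all alternatives. In Restored the call was lost without Type D line 1 (0.105) or line 3 (0.0725). The CsA-treated comparisons lost it without any of the 3 Type D lines or Type V line 3, at adjusted p of 0.0738 to 0.115 in Control + CsA and 0.0766 to 0.172 in Restored + CsA. Fitted on the compared groups alone, the adjusted p was 0.065 to 0.082 in the 4 comparisons, and in Restored + CsA it was 0.0612 with a pseudocount of 0.1 and 0.0611 with no filter. On restoration, Jag1 stood 1.12, 0.34 and 0.65 higher on the log2 scale in Type D lines 1, 2 and 3, a mean difference of 0.70 (adjusted p = 0.737), and differed by 0.66, -0.21 and 1.23 in the Type V lines, a mean of 0.56 (adjusted p = 0.832). Neither was a call, with or without the block. The fibroblast marker sums given beside Notch3 were the reverse of Jag1 between the types, and their part in the Jag1 result was not tested.

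Jag2, the other Jagged ligand, was higher after restoration in 6 of 6 lines. In Type D lines 1, 2 and 3 its level was 83.8, 19.0 and 63.4 TPM in Control and 129.5, 51.5 and 136.0 TPM in Restored. In Type V lines 1, 2 and 3 it was 3.0, 31.4 and 26.7 TPM in Control and 39.2, 53.1 and 93.0 TPM in Restored. The Control and Restored ranges overlapped in Type D and did not overlap in Type V, where line 1 had the highest ratio of Restored to Control, 13.1. Between the types, Jag2 differed by 1.64 in Control (adjusted p = 0.239) and 0.73 in Restored (adjusted p = 0.618), with overlapping ranges. Unpaired, the restoration differences were 1.03 (adjusted p = 0.534) in Type D, 1.94 (adjusted p = 0.195) in Type V and 1.49 over both types (adjusted p = 0.0941). With the cell line as a block, Jag2 passed in Type V (adjusted p = 0.00323) and over both types (adjusted p = 0.00109, where the block called 8.57% of all tested genes) and not in Type D (adjusted p = 0.0783). Under CsA it passed with the block in Type V, at a difference of 2.26 (adjusted p = 0.00127, without the block 0.139). Whether the step differed between the types was tested directly, and the difference of -0.91 had an SE of 1.24 (adjusted p = 1) without the block and 0.65 (adjusted p = 0.431) with it.

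Dll1, a Delta-class ligand, was lower than the Jagged ligands in Type D and nearly missing from one line. Its level was 8.91 to 22.4 TPM across the 12 Type D libraries and 8.14 to 15.9 TPM in Type V lines 2 and 3. In Type V line 1 it was 0.279, 0.132, 0.325 and 0.724 TPM in Control, Control + CsA, Restored and Restored + CsA, below every library of any other line. In Type D lines 1, 2 and 3, Dll1 was 13.6, 8.91 and 13.2 TPM in Control and 16.2, 22.4 and 20.2 TPM in Restored, without overlap. These lines stood 0.24, 1.24 and 0.58 higher on the log2 scale after restoration, a mean difference of 0.69 (adjusted p = 0.765), which was not a call. The difference between the types was 1.24 ± 1.00 (SE; adjusted p = 0.456) in Control. Dll4, a ligand of endothelial cells, was at most 0.299 TPM, was listed at 0 in 7 libraries, and was not tested. The summed ligand level was 206.8, 106.1 and 185.2 TPM in Type D Control and 385.4, 172.9 and 327.7 TPM in Type D Restored. The Type V lines had 4.4, 66.0 and 46.9 TPM in Control and 41.9, 88.5 and 131.5 TPM in Restored, and each Type V sum lay below each Type D sum of the same treatment. Jag1 held 52.9% to 73.6% of the ligand sum in Type D Control and 21.3% to 37.2% in Type V Control, where Jag2 held 47.6% to 68.2%.

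**Figure D3:**
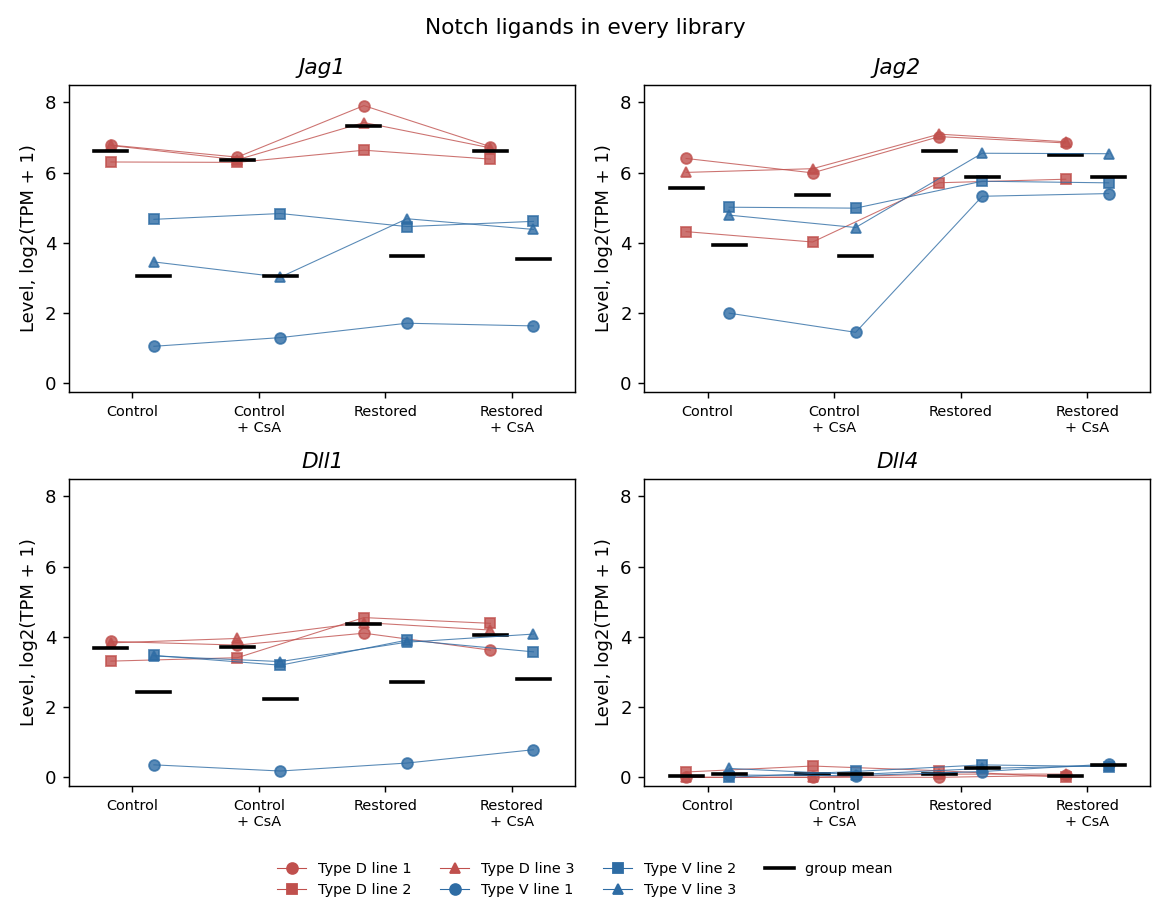
Level of each Notch ligand as log2(TPM + 1) (vertical axis) in all 24 libraries, by treatment (horizontal axis), with Type D in red and Type V in blue. Each symbol is 1 line, thin lines join the libraries of the same line, and black bars are group means of 3 lines. Jag1 separated the types in every treatment, at 77.5 TPM or more in Type D and at most 27.6 TPM in Type V, and Type V line 1 was lowest for Jag1, Jag2 and Dll1 in Control.

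No call was made on either target gene. Hes1, a transcriptional repressor and direct Notch target, was present in every library, at 24.7 to 142.2 TPM. In Type D lines 1, 2 and 3 its level was 83.0, 70.5 and 81.2 TPM in Control and 108.6, 68.7 and 139.1 TPM in Restored. In Type V lines 1, 2 and 3 it was 24.7, 92.5 and 102.2 TPM in Control and 42.2, 93.4 and 123.3 TPM in Restored. Type V line 1 was the line lowest for Jag1, Jag2 and Dll1 in Control, and lowest of its type for Notch1 and Notch3. It was also the lowest for Hes1 in Control and in Restored, and a link of Hes1 to those genes was not tested. The restoration difference was 0.37 ± 0.548 (SE; adjusted p = 0.768) in Type D and 0.34 (adjusted p = 0.817) in Type V, and with the block the mean over both types was 0.36 (adjusted p = 0.00919), below the size a call needs. Hey1, a related repressor, was 0.259 to 14.6 TPM and varied widely among the lines of a group. It was 0.261 TPM in Type D line 2 and 6.48 TPM in Type D line 3 in Control, and 14.6 TPM in Type V line 3, and its restoration difference was -0.32 (adjusted p = 0.895) in Type D and -0.10 (adjusted p = 0.985) in Type V. Between the types in Control, Hes1 differed by 0.33 (adjusted p = 0.743) and Hey1 by -0.86 (adjusted p = 0.531). No adjacent pair in the order of the 8 group means failed to overlap for Notch1, Notch2, Jag2, Dll1, Hes1 or Hey1.

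**Figure D4:**
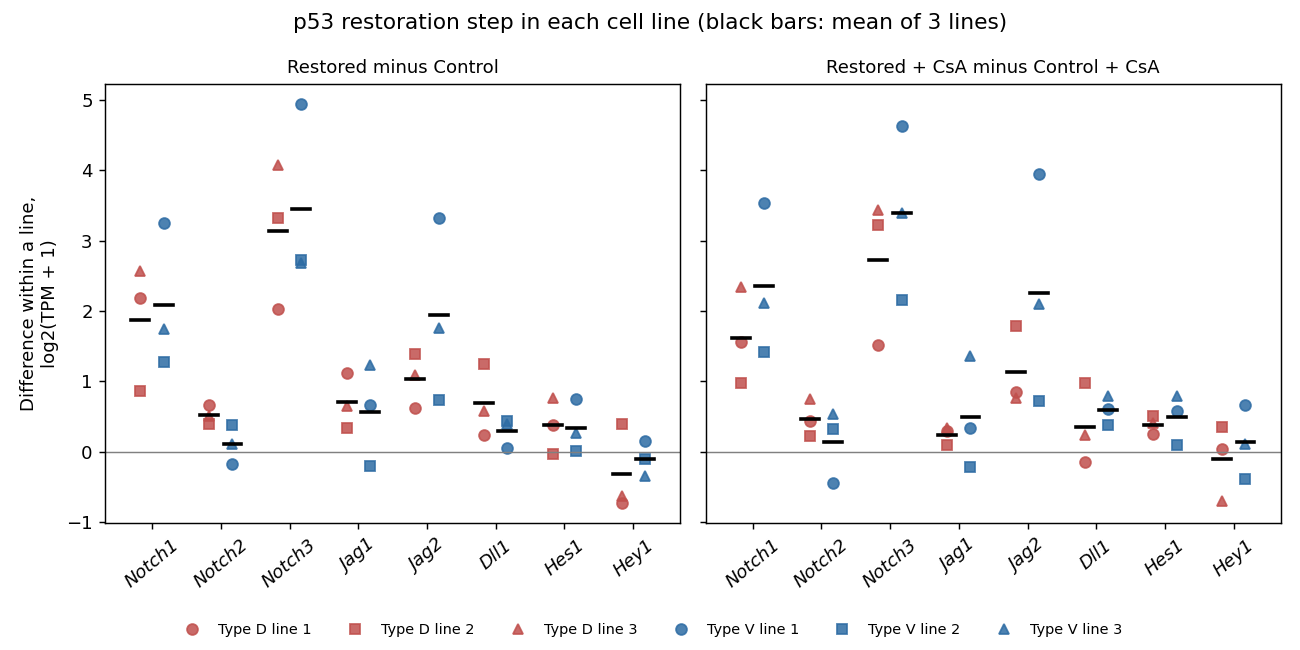
Difference made by p53 restoration within each line on the log2(TPM + 1) scale (vertical axis) for the 8 members tested (horizontal axis), without CsA on the left and under CsA on the right. Each symbol is 1 line, with Type D in red and Type V in blue, and black bars are means of 3 lines. Notch3, Notch1 and Jag2 lie above 0 in 6 of 6 lines in both panels, and Hey1 lies on both sides of 0.

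Whether restoration acted differently in the 2 types was tested as the difference of the differences. None of the 8 members was called, beside 0.0284% of all tested genes, which is 4 genes, while 540 genes had an unadjusted p under 0.05. With the cell line as a block, 344 genes (2.44%) were called and again no member, the largest difference among members being that of Jag2.

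CsA left no member called. Without restoration, all 8 members had a negative mean difference over both types, from -0.28 in Hey1 to -0.01 in Hes1. Each had adjusted p = 1, beside 0.0% of all tested genes called by limma and 193 genes at an unadjusted p under 0.05. The median difference was -0.124 over the members and also negative, at -0.022, over all tested genes. With restoration, the percent of all tested genes called was 0.0142% in Type D, 0.0% in Type V and 0.0% over both types, with 229, 100 and 179 genes at an unadjusted p under 0.05. Among the members, Jag1 in Type D had the largest difference, where it was 239.7, 98.8 and 171.4 TPM in Restored and 106.0, 82.7 and 103.5 TPM in Restored + CsA, lower in 3 of 3 lines. The ranges overlapped, and the difference of -0.72 ± 0.948 (SE) had an adjusted p of 1, and of 0.281 with the block. Notch3 was lower with CsA in 6 of 6 restored lines, with log2 differences of -0.71 to -0.12 in Type D and -0.32 to -0.08 in Type V. The mean differences of -0.47 in Type D and -0.24 in Type V were not calls. In Type V, the Jag1 difference was -0.08 and the Notch1 difference was -0.10. With the block, 18 genes in all (0.128%) were called for CsA in restored Type D cells and 2 (0.0142%) for CsA without restoration, none of them a member.

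The other genes of the pathway were taken as a list of 42, of which 36 passed the filter. In the comparison of types in Control, 1 of the 36 was higher in Type D and 3 were lower, and these 4 were called in all 4 comparisons of types, beside 8.83%, 9.88%, 9.44% and 7.82% of all tested genes in Control, Control + CsA, Restored and Restored + CsA, so the count is near the share over all genes. Nrarp, a target gene whose product feeds back on Notch, was the one higher in Type D. It was 22.5, 20.4 and 15.4 TPM in Type D Control and 0.309, 7.17 and 2.76 TPM in Type V Control, a difference of 2.56 (adjusted p = 0.0284), so it stood with Jag1 in direction while Hes1 and Hey1 were not called. Lfng encodes a Fringe glycosyltransferase that modifies Notch receptors and shifts their choice between Delta and Jagged ligands. It was 17.4, 22.5 and 24.1 TPM in Type D Control and 86.8, 124.4 and 46.6 TPM in Type V Control, a difference of -1.86 (adjusted p = 0.00134). The other lower genes were Dlk2, a non-canonical ligand, at -1.91 (adjusted p = 0.00964), and Neurl1a, a ubiquitin ligase of the Neuralized family, at -1.88 (adjusted p = 0.0489). The Lfng call in Control held without any 1 line. Nrarp lost its call without any of the 3 Type D lines or Type V line 3 (adjusted p of 0.0912 to 0.146), Dlk2 without Type D line 2 (0.0651) or Type V line 1 (0.0721), and Neurl1a without any 1 of the 6 lines (0.074 to 0.142). None of the 9 proteolysis genes or the 6 nuclear complex genes was called between types in Control or in Restored.

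On restoration, 3 of the 36 were called in Type D and 1 in Type V, beside 6.93% and 5.29% of all tested genes, also near the share over all genes. Hes6, a HES family gene whose product opposes HES1, rose in both, from 44.1, 81.7 and 53.4 TPM to 93.4, 148.4 and 157.5 TPM in Type D (difference 1.15, adjusted p = 0.0138) and from 32.9, 49.0 and 38.8 TPM to 176.8, 153.6 and 171.6 TPM in Type V (difference 2.04, adjusted p = 0.000145). The Control and Restored ranges of Hes6 did not overlap in either type. Lfng fell in Type D to 6.84, 6.72 and 10.2 TPM (difference -1.34, adjusted p = 0.015), and in Type V it passed only with the block (difference -1.03, adjusted p = 0.000236). Neurl1b, another Neuralized ligase, fell in Type D from 24.4, 26.8 and 15.1 TPM to 4.18, 3.18 and 5.05 TPM (difference -2.15, adjusted p = 0.00624). In Type V it went from 13.0, 13.3 and 24.1 TPM to 4.31, 8.54 and 18.0 TPM and was not called, and the difference between types was -1.35, which passed only with the block (adjusted p = 0.0323). Neurl1a passed in Type V with the block alone (difference 1.69, adjusted p = 0.000226). Under CsA, Hes6 was again called in both types, Neurl1b in Type D and Lfng in Type V. Without 1 line, the Type D calls without CsA were lost for Lfng (any of the 3 Type D lines, adjusted p of 0.0686 to 0.17), Neurl1b (line 1, 0.0907, or line 2, 0.138) and Hes6 (line 3, 0.205). The median restoration difference of the 36 genes was 0.05 in Type D and 0.10 in Type V, near the medians of 0.07 and 0.05 over all tested genes.

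**Figure D5:**
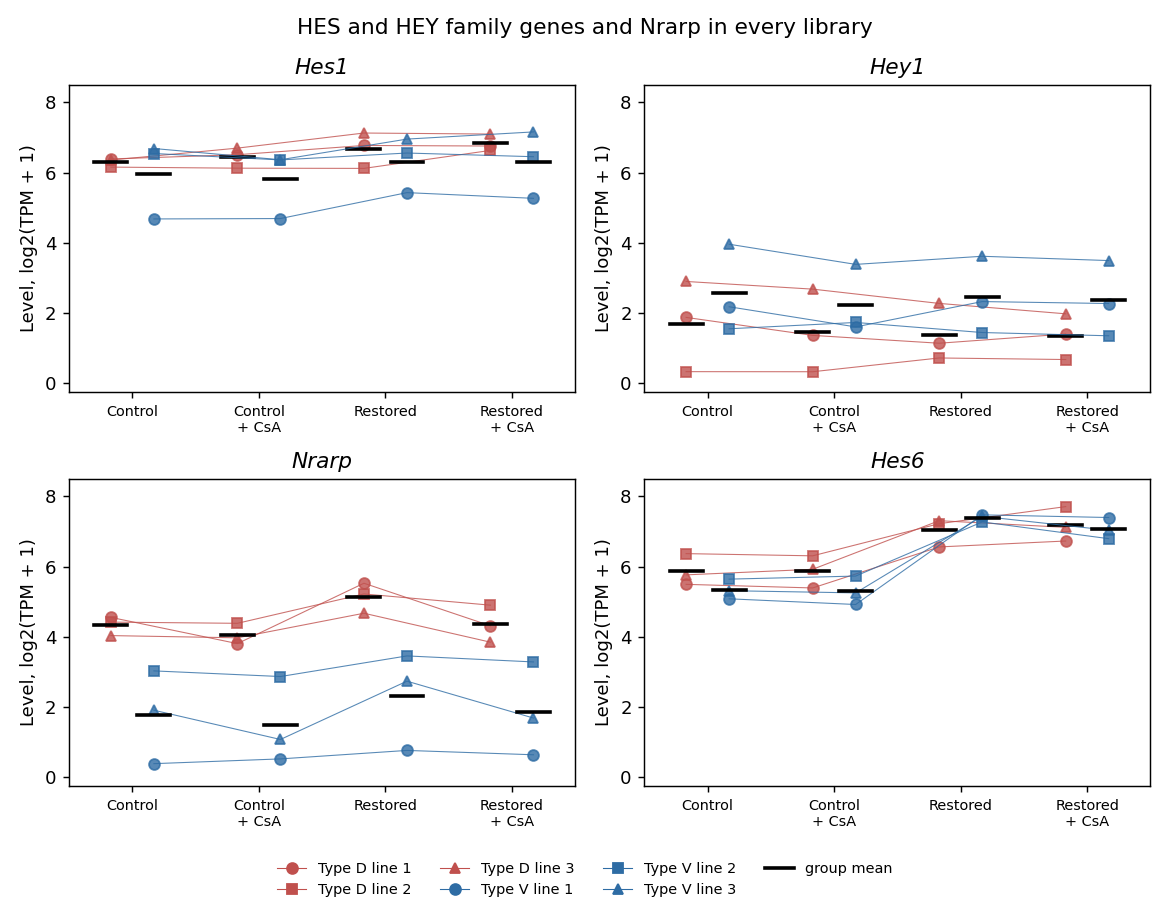
Level of Hes1, Hey1, Nrarp and Hes6 as log2(TPM + 1) (vertical axis) in all 24 libraries, by treatment (horizontal axis), with Type D in red and Type V in blue. Each symbol is 1 line, thin lines join the libraries of the same line, and black bars are group means of 3 lines. Nrarp was higher in every Type D library than in every Type V library, and Hes6 was higher after restoration in 6 of 6 lines, while the ranges of Hes1 overlapped between types and treatments.

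The genes with the pattern most like a member over the 24 libraries were listed for the 3 members with the widest range of group means. For Notch3 they were Sfi1, E530011L22Rik and Vwa5a, with Pearson r of 0.955, 0.953 and 0.952. For Jag1 they were Itga6, Eml2 and Sh3tc1, with r of 0.981, 0.974 and 0.968. For Jag2 they were Tkfc, Smad7 and Cyb561a3, with r of 0.933, 0.917 and 0.911. The libraries of a line share their source, so these values describe the 24 libraries and carry no test.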

How the data were processed

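Gene expression was measured by RNA-seq (TruSeq Stranded mRNA, single-end reads) in 24 libraries from 6 cell lines. The deposited values are TPM as the authors computed them for 25239 genes, and they sum to 1000000 in each library. The labels name HISAT2 and the builds mm10 and GRCm39 without saying which made this table. TPM values hold no read counts, so depth is unknown and no counting intervals are given. Positions are from GENCODE M21 on GRCm38, and promoters are from RefSeq (GRCm38.p6), whose gene models may differ from those used for the table.

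Groups, types and lines were taken from the labels. Values were analysed as log2(TPM + 1), for the 14104 genes at 1 TPM or more in at least 3 libraries. limma 3.58.1 (R 4.3.3) was fitted to all 24 libraries with a coefficient for each of the 8 groups, no covariate and a trended prior, with Benjamini-Hochberg adjustment over all tested genes in each of 14 comparisons and 2-sided tests. The script was tested on simulated data. Of 3 lines against 3, an exact permutation test could not give a p below 0.1, so none is printed. Lines are the replicates, and p-values of the main fit measure the spread between these lines. The main fit counts the 4 libraries of a line as separate when it estimates that spread. For the comparisons between types this overstates how well the spread is known, and their adjusted p-values are likely too small. The fit on the compared groups only counts each line once in those comparisons. The labels give the same cell line in all 4 treatments, so these pair: deviations from group means correlated at 0.599 to 0.929 in the 36 pairs of libraries of the same line and at -0.675 to 0.0438 in the 72 others. A fit with the cell line as a block was an alternative, which the comparisons between types cannot take. The block removes differences in level between lines and measures the spread within lines. The main fit leaves those differences in, so its p-values for restoration and CsA are likely too large. Also tried were no filter, a minimum of 5 TPM, a pseudocount of 0.1, quantile normalization, median-ratio scaling, leaving out each line, and fitting the compared groups only. No 2 libraries were identical.

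The members, gene lists and tests were chosen with earlier results of these data known. All 10 members are named, other pathway genes are named where called between types or for restoration, and the 3 genes most alike in pattern are named for the 3 members of widest range. Some results of that list are not reported here. Notch3, Hes6 and Lfng also belong to gene modules the study built from these libraries, which is no independent evidence. Python 3.11.15 was used for summaries.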

Additional observations from a re-analysis of the deposited data

How the results depend on the processing

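Alternatives were compared for 54 single-gene results, chosen mostly because they were called in some fit, so a reversal was unlikely from the start. None of these reversed. Of their 678 values, 545 kept their direction and side of the threshold, 126 kept their direction but lost the call and 7 gained it. Outside these results, signs did change with a pseudocount of 0.1. The Notch3 difference of restoration between types became 1.82. The Hey1 step under CsA in Type D, negative with a pseudocount of 1, became 0.06. Of 178 member counts, 137 stayed within 1.5 times the reported count and 41 did not. Fitting the compared groups only leaves fewer libraries to estimate the spread and, between types, counts each line once. It gave 0 members between types in Control and in Control + CsA, and 1 in Restored and in Restored + CsA. For restoration it gave 0 in Type V, 1 over both types and 0 in Type V under CsA. With a pseudocount of 0.1 or with no filter, 1 member was called between types in Restored + CsA. With no filter, 1 was called for restoration over both types and 0 in Type D under CsA. With the cell line as a block, 2 members were called for restoration in Type D, 3 in Type V, 2 in Type D under CsA and 3 in Type V under CsA, while the genes called of all 14104 rose to 1582, 1222, 1366 and 1124 from 977, 746, 763 and 650. The block changed no other count of members by over 1.5 times, though Jag2 was added over both types. Leaving out 1 line gave 0 to 2 members between types in each of the 4 treatments, 0 to 1 for restoration in Type D, 1 to 2 over both types and 0 to 1 in Type D under CsA. Beyond fewer lines or a smaller fit, the cause was not tested. With 3 lines a type and unknown depth, levels under 1 TPM, such as Notch4 and Dll4, are not resolved.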
